A study of Caenorhabditis elegans with 4 samples.

Results

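Chromosomes II, III and V of Caenorhabditis elegans were examined as the source of small RNAs that co-purified with PRG-1, the Piwi Argonaute that carries piRNAs in the germline of this nematode. Reads had been counted in consecutive bins of 1000000 bases, each strand apart, and every bin of these 3 autosomes was taken, whatever its level. The 51 bins gave 102 strand-specific bins, here called strand-bins, of 208 in the genome: 32 on II, 28 on III and 42 on V. Whole adult hermaphrodites were grown at 25 °C, and V5-tagged PRG-1 was precipitated from their lysate with its bound RNA. One group of 2 libraries came from animals labelled Wild Type, with the tag on the unaltered protein, and the other group of 2 libraries from prg-1(∆PAZ-domain) animals, whose tagged PRG-1 lacks the PAZ domain. Whether replicates were separate cultures is not stated in the labels, and the p-values below therefore reflect only how far these libraries spread, which may be technical spread. Neither input RNA nor a precipitate from untagged animals was analysed here, and the amount of precipitated PRG-1 was not known.

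An Argonaute protein grips the 5' end of its small RNA in one pocket and the 3' end in another, and the PAZ domain forms the pocket for the 3' end. In C. elegans most piRNA genes lie in large clusters on chromosome IV, while miRNAs, hairpin-derived RNAs that are normally carried by the Argonautes ALG-1 and ALG-2, are encoded on all chromosomes. Autosomes II, III and V therefore hold many miRNA genes and few piRNA genes.

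The annotation showed the same division. On the matching strand, the 102 strand-bins hold 389 annotated piRNA genes, which is 2.53% of the 15363 in the genome, against 14714 on chromosome IV. They hold 104 miRNA genes, 49 on II, 27 on III and 28 on V, spread over 54 strand-bins, and 48 strand-bins hold none. They also hold 199 tRNA, 180 snoRNA and 69 snRNA genes and 11083 protein-coding genes. The only ribosomal RNA genes among them are 15 copies of the 5S gene in 1 strand-bin of V. Every strand-bin held at least 1 small RNA gene of some kind, so none served as an empty control. Reads cannot be assigned to a single gene within a bin, and each strand-bin is named below by the small RNA genes annotated on it.

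The 4 libraries held 6461936 and 8416474 genome-mapped reads in wild type replicates 1 and 2, and 7819170 and 14430880 in mutant replicates 1 and 2. Strand-bins of II, III and V took 815274 and 1090354 of these reads in wild type, against 1405288 and 1944067 in the mutant. That was 12.6% and 13.0% of genome-mapped reads in wild type, against 18.0% and 13.5% in the mutant. No strand-bin was close to empty: the counts ranged from 754 to 218814 reads. The single largest strand-bin of the genome runs from 15000001 to 16000000 on chromosome I, plus strand (coordinates of WBcel235, the same assembly as ce11), and holds genes of the large and small ribosomal RNAs. It took 63.2% and 67.1% of genome-mapped reads in wild type replicates 1 and 2, and 29.6% and 61.2% in mutant replicates 1 and 2. Mutant replicate 1 thus stood apart from the other 3 libraries, and values are given for each library for that reason. The part of this share in the results below was not tested beyond the second scaling and the omission of libraries. Levels are given as reads per 1000000 genome-mapped reads (RPM), and again per 1000000 reads outside this largest strand-bin (outside-RPM). Moving from the first scaling to the second lowered the median log2 fold change over all 208 strand-bins by 0.50, from -0.09 to -0.60.

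Within the 3 chromosomes 12 strand-bins held over 50% of the reads, and nearly all of those carry miRNA genes. The 4 strand-bins with the highest mean RPM of each chromosome, 12 in all, held 51.0% and 53.8% of the reads of the 3 chromosomes in wild type replicates 1 and 2, and 68.8% and 58.2% in mutant replicates 1 and 2. By chromosome, the 4 of III held less in wild type, 37.2% and 34.7% of the reads of III, against 65.0% and 50.7% in the mutant, while those of II held 56.7% and 60.7%, against 63.5% and 57.0%. On V the shares were 54.9% and 57.9% in wild type, against 77.0% and 65.4% in the mutant. Of these 12 strand-bins 11 hold a miRNA gene, and the exception holds genes of the SL1 spliced leader RNA. The remaining 90 strand-bins summed to 61760 and 59834 RPM in wild type and to 56072 and 56307 RPM in the mutant, a similar total in the 4 libraries on this scale. Per outside-RPM their total differed, at 167730 and 181849 in wild type, against 79638 and 144996 in the mutant. A typical strand-bin lay far lower, with a median of 730 and 746 RPM in wild type, against 648 and 710 RPM in the mutant on II. The medians on III were 907 and 862 RPM in wild type, against 834 and 853 RPM in the mutant. Chromosome V had the lowest medians, 415 and 411 RPM in wild type, against 361 and 404 RPM in the mutant, and also had the most protein-coding genes per strand-bin, 119 on average against 108 on II and 94.3 on III.

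Where a single strand of a bin carries a miRNA gene, reads lay more often on that strand, by a count that was not tested. In 20 bins a miRNA gene is annotated on exactly 1 strand, and that strand had more reads than the other in 14 of them, as a mean over the 4 libraries. The deposited sense column was read as the plus strand and the antisense column as the minus strand.

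The strand-bin with the highest mean RPM in the mutant was the minus strand of chromosome V between 14000001 and 15000000. It carries mir-48 and mir-241 at positions 14364412 to 14366283, miRNAs of the let-7 family that act in the timing of larval development, and also mir-8210. It held 5882 and 7057 RPM in wild type, against 27648 and 14754 RPM in the mutant. Both mutant libraries lay above both wild type libraries, and the mean went from 6469 ± 831 to 21201 ± 9117 RPM (SD, n = 2 each). The log2 fold change was 1.71 ± 0.50 (approximate SE) and did not pass the edgeR quasi-likelihood test (adjusted p = 0.148). Per outside-RPM it was 1.05 (edgeR adjusted p = 0.332).

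The strand-bin with the highest mean RPM in wild type was the plus strand of chromosome II between 11000001 and 12000000, and its mutant values were lower. It holds 12 miRNA genes, among them mir-35 to mir-41 at 11537608 to 11538404 and mir-42, mir-43 and mir-44 at 11889811 to 11890118. The mir-35 family is made in oocytes and early embryos and is needed for embryonic development. In precipitates from whole animals, fewer cells or embryos that make an RNA, less of it per cell and less of it bound to the protein cannot be told apart. The strand-bin held 15607 and 21851 RPM in wild type, against 9043 and 3613 RPM in the mutant. Neither mutant value reached the lower wild type value, with a log2 fold change of -1.57 ± 0.61 that did not pass the edgeR test per genome-mapped read (adjusted p = 0.231). Per outside-RPM the values were 42386 and 66410 in wild type, against 12844 and 9304 in the mutant. On that scale it fell by 2.30 on the log2 scale (edgeR adjusted p = 2.52e-04). The call was lost without wild type replicate 1 (edgeR adjusted p = 0.0857) or wild type replicate 2 (0.458), and under the other library scalings given in the closing section.

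A ratio of counts within a library does not depend on the scaling. The mir-35 to mir-44 strand-bin had 2.65 and 3.10 reads for each read of the mir-48 and mir-241 strand-bin in wild type, against 0.327 and 0.245 in the mutant. The wild type libraries were thus on one side of 1 and the mutant libraries on the other, and the mean mutant ratio was 0.0995 of the mean wild type ratio. A two-sided exact permutation test returned p = 0.33 (0.378 after adjustment over 17 such ratios), which is the lower limit for groups of 2. No ratio in these data could pass a threshold of 0.05 in that test. The 17 ratios were chosen from named strand-bins with their values known.

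**Figure D1:**
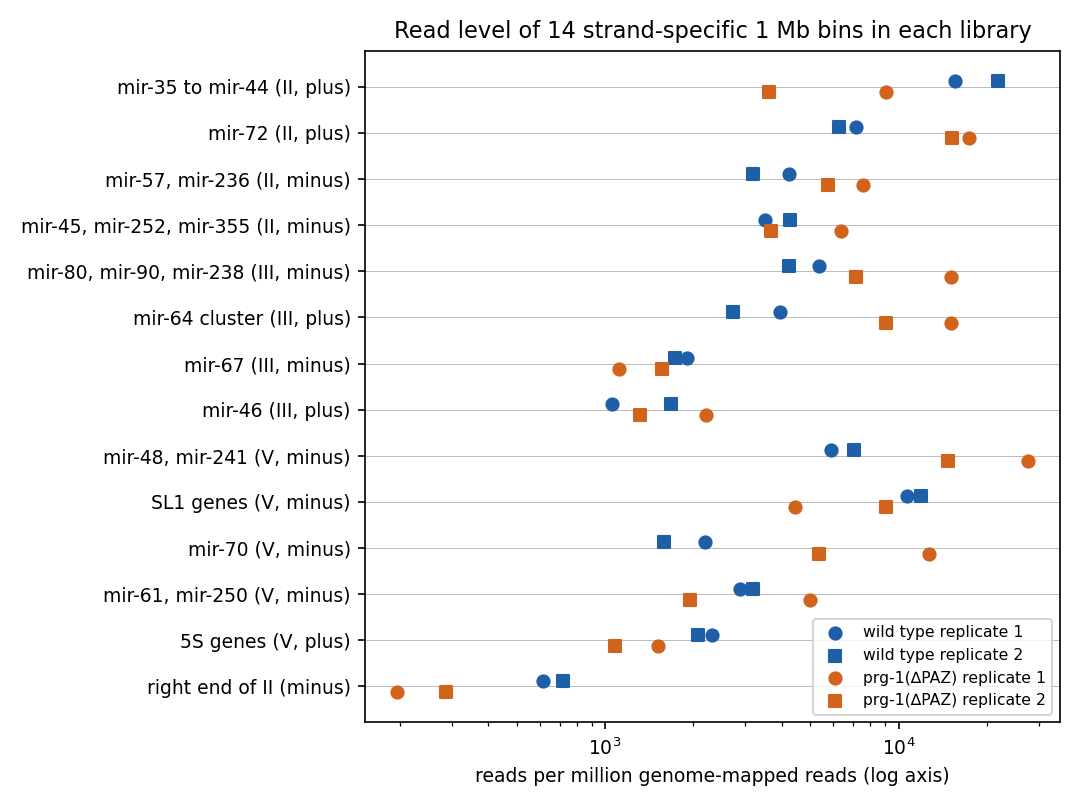
Reads per 1000000 genome-mapped reads (log axis) of 14 strand-bins of chromosomes II, III and V, named by their small RNA genes; each symbol is 1 library. The mir-48 and mir-241 strand-bin is at 5882 and 7057 in wild type, against 27648 and 14754 in the mutant, and the mir-35 to mir-44 strand-bin goes from 15607 and 21851 to 9043 and 3613.

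On chromosome II, 2 other miRNA strand-bins ranked among the 4 most read with both mutant values higher. The plus strand between 2000001 and 3000000 carries mir-72 (2452838 to 2452936) and mir-8195 and held 7163 and 6260 RPM in wild type, against 17383 and 15163 RPM in the mutant. The mutant replicates lay close together on this scale, and the log2 fold change was 1.28 ± 0.38 (edgeR adjusted p = 0.148). Per outside-RPM they lay further apart, at 24689 and 39046, both above the 19453 and 19025 of wild type (log2 fold change 0.73, edgeR adjusted p = 0.551). The minus strand between 7000001 and 8000000 carries mir-57, which acts in posterior patterning, and mir-236. It held 4227 and 3199 RPM in wild type, against 7570 and 5728 RPM in the mutant, a log2 fold change of 0.84 ± 0.35 (edgeR adjusted p = 0.262). Per outside-RPM the groups of this strand-bin overlapped, with a log2 fold change of 0.27. The fourth strand-bin of II is the strand opposite the mir-35 genes. It carries mir-45, mir-252 and mir-355, and its 3517 and 4262 RPM in wild type overlapped the 6365 and 3690 RPM in the mutant. Per outside-RPM both mutant values were lower, with 9551 and 12952 in wild type, against 9040 and 9503 in the mutant. Because mir-44 and mir-45 give the same mature sequence, the division of their reads between the opposite strands of this bin is uncertain. Over the bin, the plus strand had 4.44 and 5.13 reads for each read of the minus strand in wild type, against 1.42 and 0.979 in the mutant.

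On chromosome III, 2 miRNA strand-bins had the highest mean levels. The minus strand between 8000001 and 9000000 holds mir-80, a relative of bantam of flies, with mir-90 and mir-238 (8865270 to 8874084). Its 5357 and 4238 RPM in wild type compare with 15085 and 7144 RPM in the mutant, so the mutant libraries were both higher and differed from each other more than the wild type libraries did (log2 fold change 1.21 ± 0.51, edgeR adjusted p = 0.262). The plus strand between 2000001 and 3000000 holds the cluster of mir-229, mir-64, mir-65 and mir-66 (2172452 to 2173206). It held 3944 and 2722 RPM in wild type, against 15061 and 9054 RPM in the mutant. Both mutant values lay more than 2 times above the higher wild type value, yet the log2 fold change of 1.86 ± 0.46 did not pass (edgeR adjusted p = 0.114). Per outside-RPM this strand-bin kept a log2 fold change of 1.24 (edgeR adjusted p = 0.183), with 10710 and 8271 in wild type, against 21391 and 23315 in the mutant. The other named strand-bins of III lay lower. The mir-67 strand-bin was at 1905 and 1731 RPM in wild type, against 1114 and 1559 RPM in the mutant, and the mir-46 strand-bin at 1054 and 1672 RPM and at 2208 and 1321 RPM, with overlapping groups.

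On chromosome V the largest log2 fold change per genome-mapped read of any of the 102 strand-bins belonged to the minus strand between 6000001 and 7000000, which carries mir-70 (6665536 to 6665635) and mir-256. It held 2191 and 1588 RPM in wild type, against 12747 and 5353 RPM in the mutant, a log2 fold change of 2.26 ± 0.56 (edgeR adjusted p = 0.114). Per outside-RPM the values were 5950 and 4828 in wild type, against 18104 and 13785 in the mutant. On that scale it rose by 1.57 on the log2 scale (edgeR adjusted p = 0.0465), the only strand-bin of the 102 that passed the test upward, beside 0.962% of all 208 strand-bins. The call was lost without wild type replicate 1 (edgeR adjusted p = 0.945) or wild type replicate 2 (0.990), and under TMM factors (0.102). For each read of the mir-35 to mir-44 strand-bin, wild type had 0.140 and 0.0727 reads of the mir-70 strand-bin. The mutant had 1.41 and 1.48. The mutant libraries lay close together on this ratio, which was chosen with its values known. They lay further apart on some other ratios, such as that of the mir-70 strand to its opposite strand, at 37.1 and 11.8.

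Another miRNA strand-bin of V, the minus strand with mir-61 and mir-250 (11769917 to 11770156), had overlapping groups per genome-mapped read. In C. elegans mir-61 represses vav-1 during vulval development. The strand-bin held 2894 and 3204 RPM in wild type, against 5002 and 1948 RPM in the mutant, so the mutant libraries lay on both sides of wild type (log2 fold change 0.19 ± 0.52, edgeR adjusted p = 0.861). Per outside-RPM both mutant values were lower, with 7861 and 9737 in wild type, against 7104 and 5017 in the mutant (log2 fold change -0.54, edgeR adjusted p = 0.562).

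The bin of V between 17000001 and 18000000 holds a tandem repeat in which 5S ribosomal RNA genes alternate with genes of SL1, the leader that is trans-spliced onto the 5' ends of many nematode messenger RNAs. The annotation places 15 copies of the 5S gene on the plus strand of the bin and 11 of the SL1 gene on the minus strand. The repeat spans 17115903 to 17132107 and holds 14 of the 5S copies, and the other lies at 17428879 to 17428996. An SL1 copy at 17118154 to 17118251 is annotated on the plus strand. The SL1 strand held 10667 and 11932 RPM in wild type, against 4425 and 9081 RPM in the mutant. Both mutant values were lower, one of them much lower than the other, and the log2 fold change of -0.74 ± 0.49 did not pass (edgeR adjusted p = 0.443). The 5S strand, which also holds mir-257, had 2322 and 2071 RPM in wild type, against 1518 and 1080 RPM in the mutant (log2 fold change -0.76 ± 0.27, edgeR adjusted p = 0.199). The ratio of the SL1 strand to the 5S strand was 4.59 and 5.76 in wild type, against 2.92 and 8.41 in the mutant, so the groups overlapped. Mutant replicate 1, the library with the lowest share in the ribosomal RNA strand-bin of chromosome I, also had the lowest SL1 level.

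The opposite strand of the same bin gave a comparison for the miRNA strands within each library. That other strand is not always free of miRNA genes. It holds mir-5548 and mir-8199 in the mir-72 bin and mir-268 in the mir-61 and mir-250 bin. In the mir-60 bin it holds mir-1822, mir-2953 and mir-8192. In the mir-48 and mir-241 bin the miRNA strand had 13.9 and 17.01 reads for each read of the other strand in wild type, against 70.5 and 36.0 in the mutant. The other strand itself lay at 424, 415, 392 and 409 RPM in wild type replicates 1 and 2 and mutant replicates 1 and 2, and at 1152, 1261, 557 and 1054 outside-RPM. In the mir-70 bin the ratio was 5.31 and 3.64 in wild type, against 37.1 and 11.8 in the mutant. The mir-72 bin had ratios of 19.7 and 17.3 in wild type, against 53.8 and 57.4 in the mutant. Of these bins, that of mir-72 had mutant replicates closest to each other. In the bin of the mir-64 cluster they were 6.61 and 5.25 against 19.4 and 15.6, and in the mir-80 bin 7.57 and 5.97 against 21.4 and 10.004. For mir-57 the ratio was 5.71 and 4.30 in wild type, against 12.7 and 7.91 in the mutant. In each of these 6 bins both mutant ratios exceeded both wild type ratios, and each had the exact permutation p of 0.33. These bins were chosen with their values known, and other miRNA bins did otherwise. In the mir-61 and mir-250 bin the ratio was 4.64 and 4.99 in wild type, against 11.1 and 3.49 in the mutant, and in the mir-1830 bin both mutant ratios were lower, 1.48 and 1.09 against 2.24 and 2.01. For the strand-bin of II with mir-60, a miRNA of the intestine, the ratio was 3.47 and 3.61 in wild type, against 3.12 and 3.46 in the mutant. Both mutant ratios were lower there too, by a small amount: the mean mutant ratio was 0.929 of the mean wild type ratio.

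**Figure D2:**
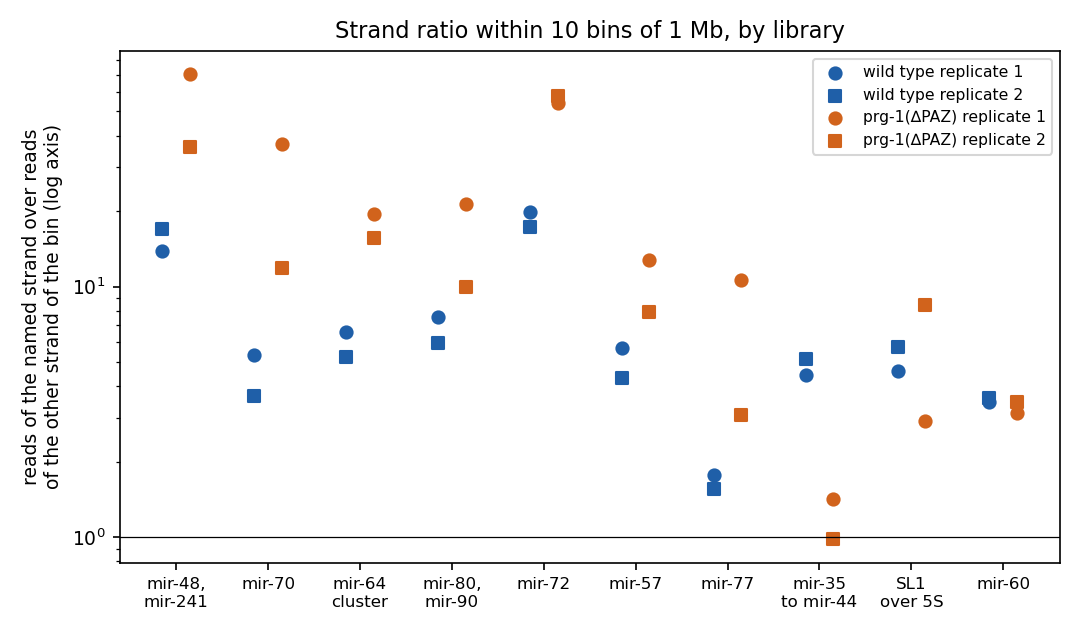
Reads of the named strand divided by reads of the other strand of the same bin (log axis) in 10 bins; blue symbols are wild type, orange symbols the mutant, and the line marks 1. Ratios of the mir-48 and mir-241 bin are 13.9 and 17.01 in wild type, against 70.5 and 36.0 in the mutant, while those of the mir-35 to mir-44 bin are 4.44 and 5.13 and 1.42 and 0.979.

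Tested one by one per genome-mapped read, none of the 102 strand-bins passed the edgeR test at an adjusted p of 0.05, in either direction. Over all 208 strand-bins, 2.4% were called lower and 0.0% higher. At an unadjusted p under 0.05, 15 of the 102 were lower and 8 higher, beside 13.0% and 10.1% of all strand-bins. DESeq2 called 17 lower and 10 higher, beside 13.9% and 11.5% of all strand-bins, so the count of calls depended on the tool. Of the 10 that DESeq2 called higher, 9 hold a miRNA gene, and of the 17 that it called lower, 7 do. Such a gene lies on 54 of the 102 strand-bins and on 127 of all 208. The number of edgeR calls also depended on the mutant libraries. Without mutant replicate 1, 11 strand-bins were called lower and 9 higher, beside 11.1% and 14.9% of all strand-bins. Without mutant replicate 2 the counts were 29 and 13, beside 28.8% and 16.3%. The spread was then taken from the 2 wild type libraries alone. The higher calls made under both omissions were 6, those of mir-72, mir-77, the mir-64 cluster, mir-255, mir-70 and mir-48 with mir-241. The lower calls made under both were 7, of which 4 hold a miRNA gene. Over all 208 strand-bins, 8.17% were called higher under both omissions and 8.17% lower. Without either wild type library, 0 strand-bins were called.

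Both mutant libraries lay above both wild type libraries in 14 of the 102 strand-bins, beside 16.3% of all strand-bins, and below both in 50, beside 40.9%. Among the 14 higher ones, 12 hold a miRNA gene, which is 12 of the 54 with such a gene and 2 of the 48 without. Among the 50 lower ones, 25 hold a miRNA gene and 25 do not. Such a split over all 208 strand-bins, of which 127 hold a miRNA gene, is not given here on either scale. Whether higher values go with miRNA genes outside these chromosomes was therefore not tested. Per outside-RPM the counts were 6 higher and 74 lower, beside 7.21% and 62.0% of all strand-bins. The 6 are the strand-bins of mir-72, mir-77, the mir-64 cluster, mir-80, mir-70 and mir-48 with mir-241, and all of them hold a miRNA gene. Of the 74 lower ones, 34 hold a miRNA gene and 40 do not. Under this scaling edgeR called 2 strand-bins lower and 1 higher, beside 3.85% and 0.962% of all strand-bins. The 2 lower ones are the mir-35 to mir-44 strand-bin and the minus strand at the right end of II, and the higher one is the mir-70 strand-bin. Without adjustment, 5 were lower and 3 higher at a p under 0.05, beside 6.73% and 2.88%, and DESeq2 called 4 lower and 1 higher, beside 5.77% and 0.962%.

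The minus strand at the right end of II begins at 15000001, and the last annotated base of the chromosome is at 15279420. It holds no miRNA gene, 1 piRNA gene and 2 snoRNA genes. Of its 17 protein-coding genes 9 are gst genes, which encode glutathione S-transferases, enzymes that detoxify by adding glutathione. It held 615 and 720 RPM in wild type, against 196 and 287 RPM in the mutant, and each mutant value was less than 0.5 of the lower wild type value. It just missed the edgeR test per genome-mapped read (log2 fold change -1.47 ± 0.23, adjusted p = 0.0566) and fell by 1.92 on the log2 scale per outside-RPM (edgeR adjusted p = 0.0465). That call was lost without wild type replicate 1 or 2 (edgeR adjusted p = 0.945 and 0.990) and with a minimum of 50 reads (0.0672). The plus strand of this end lay at 120 and 148 RPM in wild type, against 117 and 98.4 RPM in the mutant, with a log2 fold change of -0.32, so the strand ratio went from 5.13 and 4.86 to 1.67 and 2.92. The other strand-bin named for a low value was the minus strand of II between 4000001 and 5000000, which holds mir-1830. It was at 1508 and 1354 RPM in wild type, against 904 and 721 RPM in the mutant (log2 fold change -0.82 ± 0.20, edgeR adjusted p = 0.114).

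As a class, strand-bins with and without a miRNA gene had similar medians but unlike spreads. The median log2 fold change per genome-mapped read was -0.12 over the 102 strand-bins, with quartiles of -0.34 and 0.10, and 83 of them lay within 0.5 of 0. It was -0.09 over the 54 with a miRNA gene, with a range of -1.57 to 2.26, and -0.16 over the 48 without, with a range of -1.47 to 0.35. Per outside-RPM the medians were -0.60 and -0.68. On that scale, 27 of all 208 strand-bins had a log2 fold change above 0. Among the 102, these were 8 of the 54 with a miRNA gene and 0 of the 48 without. Summed over strand-bins, those with a miRNA gene held 8.91% and 9.19% of genome-mapped reads in wild type, against 15.3% and 10.2% in the mutant. Those without held 3.71% and 3.76% in wild type, against 2.65% and 3.25% in the mutant. Leaving out the mir-35 to mir-44 strand-bin, a step chosen after its values were seen, the first sums were 7.35% and 7.01% in wild type, against 14.4% and 9.86% in the mutant. Per outside read the order of the libraries was different: strand-bins with a miRNA gene held 24.2% and 27.9% in wild type, against 21.8% and 26.3% in the mutant, and those without held 10.1% and 11.4% against 3.76% and 8.37%.

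**Figure D3:**
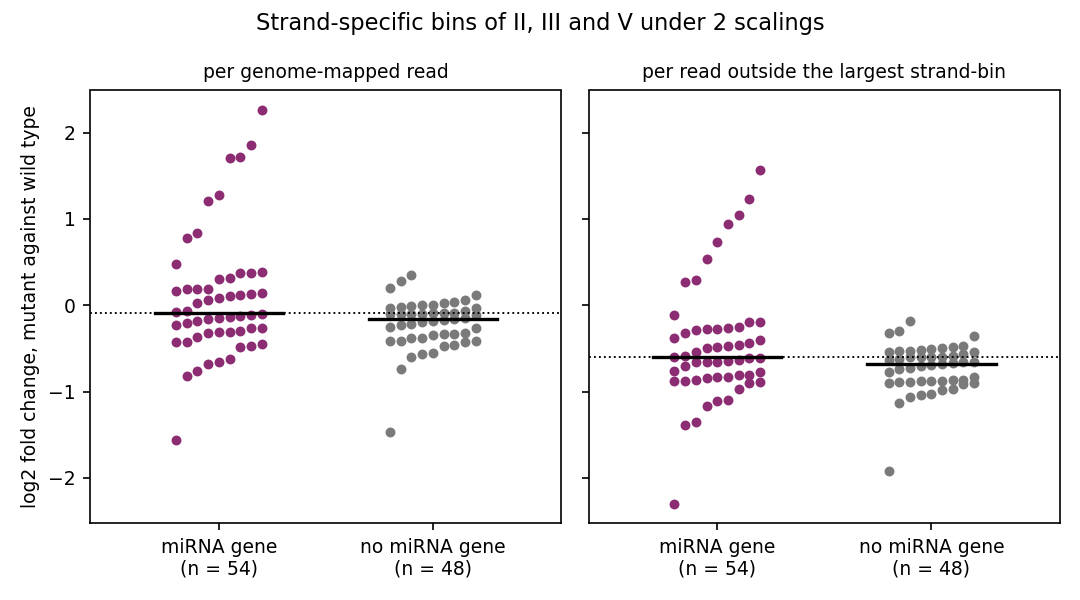
Log2 fold change of the mutant against wild type for the strand-bins of II, III and V with a miRNA gene (n = 54) and without one (n = 48), under both scalings; each point is 1 strand-bin, horizontal bars are class medians, and the dotted line is the median over all 208 strand-bins. The points with a miRNA gene run from -1.57 to 2.26 per genome-mapped read, and those without from -1.47 to 0.35.

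The strand-bins with the most piRNA genes of each chromosome had log2 fold changes near the median of all strand-bins. They say little of the other strand-bins with at least 5 piRNA genes, some of which also hold miRNA genes described above. The strand-bin with the most piRNA genes on II, the minus strand between 9000001 and 10000000, has 14 of them and no miRNA gene. It held 838 and 827 RPM in wild type, against 686 and 962 RPM in the mutant (log2 fold change -0.02 ± 0.21, edgeR adjusted p = 0.988). On III the plus strand between 4000001 and 5000000 has 7 piRNA genes and was at 1322 and 1220 RPM in wild type, against 1160 and 1191 RPM in the mutant (log2 fold change -0.11). On V the minus strand between 3000001 and 4000000 has 13 and was at 195 and 178 RPM in wild type, against 171 and 169 RPM in the mutant (log2 fold change -0.14). Among strand-bins without a miRNA gene, the median log2 fold change was -0.10 over the 15 with at least 5 piRNA genes and -0.36 over the 6 with none, beside -0.09 over all strand-bins. Reads of the piRNAs themselves could not be separated from other reads of a bin.

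Known miRNA families of these chromosomes, some already described above, were also looked up from lists. The lists were chosen with results of these data known. The counts below are therefore no independent check. The 28 listed genes fall in 14 strand-bins, 7 of them named by rule and described above. Of the 14, 9 had both mutant values above wild type per genome-mapped read, 1 had both below and 4 overlapped, beside 16.3% above and 40.9% below over all strand-bins. Among the 54 strand-bins of II, III and V with a miRNA gene, 12 were above and 25 below. The median log2 fold change of the 14 was 0.43, beside -0.09 over all strand-bins. Per outside-RPM the counts for the 14 were 5, 3 and 6, beside 7.21% above and 62.0% below, and the median was -0.16, beside -0.60. On that scale 6 of the 54 were above and 34 below. The other 7 of the 14 include those of mir-77 and mir-255, already mentioned among the calls above. Of these 7, 5 had both mutant values above wild type and 2 overlapped per genome-mapped read, with a median of 0.38. Per outside-RPM 1 of these 7 was above and 6 overlapped, with a median of -0.20. The strand-bin of lin-4, the founding miRNA that represses lin-14 in larvae, was at 721 and 695 RPM in wild type, against 980 and 783 RPM in the mutant (log2 fold change 0.32 ± 0.16, edgeR adjusted p = 0.325). The mir-77 strand-bin was at 944 and 1020 RPM in wild type, against 4884 and 1533 RPM in the mutant, a log2 fold change of 1.71 ± 0.61 (edgeR adjusted p = 0.199) that rested on mutant replicate 1 more than on replicate 2. The strand-bin of mir-255 was at 467 and 456 RPM in wild type, against 698 and 882 RPM in the mutant (log2 fold change 0.78 ± 0.16, edgeR adjusted p = 0.0928, DESeq2 adjusted p = 7e-06). These strand-bins were named after their values were seen.

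**Figure D4:**
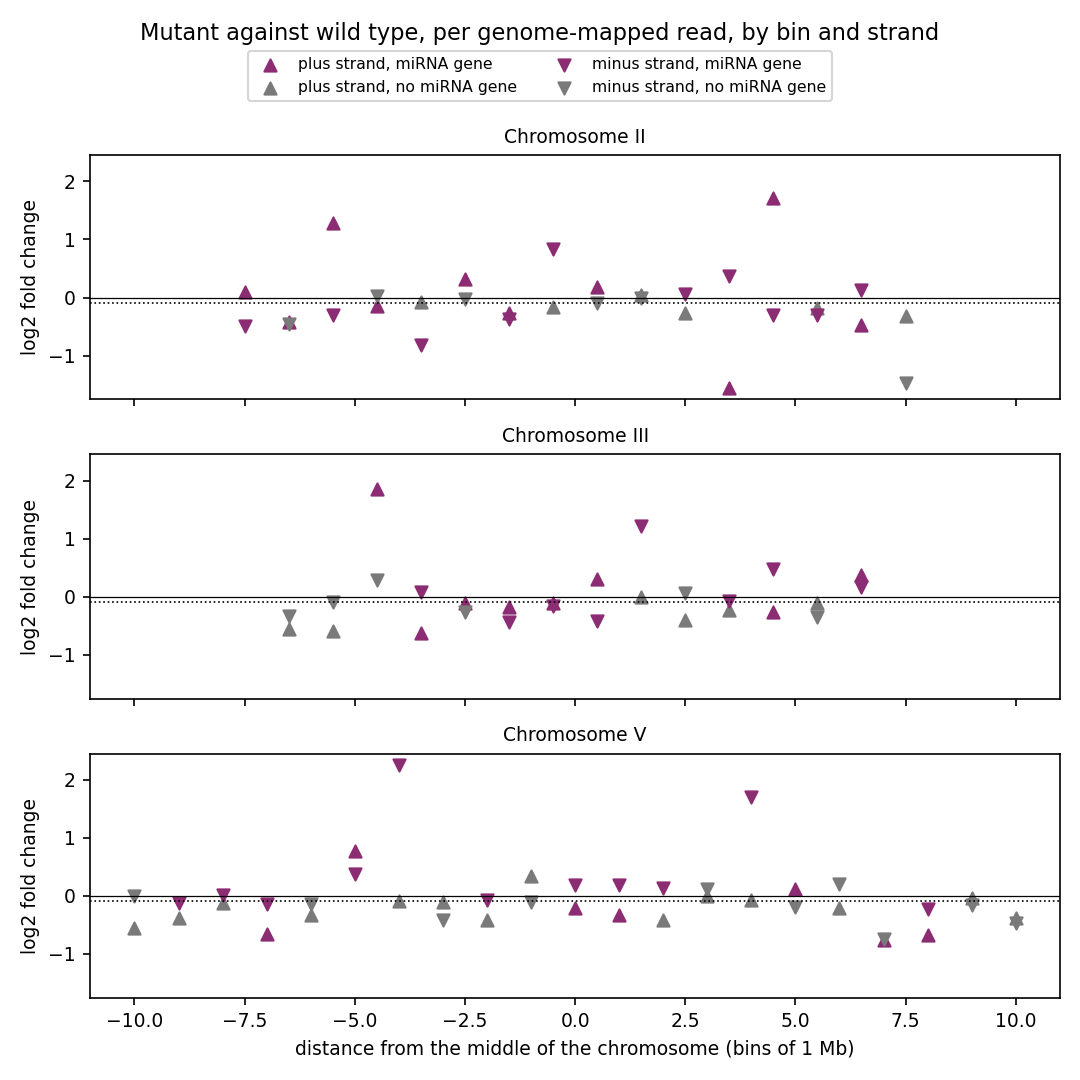
Log2 fold change of the mutant against wild type per genome-mapped read, by distance of the bin from the middle of the chromosome, for II, III and V; triangles point up for the plus strand and down for the minus strand, purple marks a miRNA gene, and the dotted line is the median over all 208 strand-bins (-0.09). Of the 102 strand-bins 83 lie within 0.5 of 0, and none without a miRNA gene lies above 0.35.

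Summed over both strands and all bins, chromosome II held 5.62% ± 0.345 of genome-mapped reads in wild type, against 5.65% ± 0.996 in the mutant (SD, n = 2 each), with overlapping groups (exact permutation p = 1.0). Chromosome III held 3.14% ± 0.221 in wild type, against 4.46% ± 0.977 in the mutant. Chromosome V held 4.02% ± 0.115 in wild type, against 5.61% ± 1.21 in the mutant. On III and V both mutant libraries were higher (exact permutation p = 0.33 each, 0.467 after adjustment over the 7 chromosomes including the mitochondrial one). Chromosome X, for comparison, held 2.39% ± 0.147 in wild type, against 4.84% ± 0.429 in the mutant (exact permutation p = 0.33), and whether its difference exceeds that of III or V was not tested. Per outside read, the log2 differences were -0.59 for II, -0.10 for III and -0.12 for V, so the higher values of III and V depended on the scaling. Without the mir-35 to mir-44 strand-bin, the log2 difference of chromosome II per genome-mapped read was 0.42 in place of -0.0013.

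The share of reads on the plus strand, which needs no scaling, was lower in both mutant libraries on chromosome V. On its minus strand lie mir-48 with mir-241 and mir-70, whose strand-bins had higher RPM in both mutant libraries. The SL1 genes also lie there, and their strand-bin had lower RPM in both. The part of each in the share was not tested. On V the plus-strand share was 26.1% ± 2.06 in wild type, against 16.1% ± 4.26 in the mutant (exact permutation p = 0.33). On II it was 64.7% ± 2.36 and 61.6% ± 2.15, and on III 48.7% ± 0.942 and 51.8% ± 2.04. Over all bins, the mutant share minus the wild type share was -9.97 percentage points on V, -3.09 on II and 3.09 on III. Without the most-read bin of each chromosome it was -5.76 on V, 10.6 on II and 11.5 on III. The order of the chromosomes stayed the same, while the sign on II and the sizes depended on single bins. In the 14 bins with neither a miRNA nor a ribosomal RNA gene on either strand, the share was 48.7% ± 2.17 in wild type, against 47.8% ± 0.112 in the mutant, with overlapping groups (exact permutation p = 1.0).

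Replicates differed more in the mutant than in wild type. The SD over the 102 strand-bins of the log2 ratio of replicate 2 to replicate 1 was 0.21 in wild type, against 0.49 in the mutant. Within the mutant it was 0.60 over strand-bins with a miRNA gene and 0.30 over those without. The largest gap in the mutant was in the mir-77 strand-bin, with a log2 ratio of -1.67, and in the opposite direction in the SL1 strand-bin, with 1.04. Per genome-mapped read the median ratio of mutant replicate 2 to replicate 1 was 1.04, and per outside read it was 1.89, so the typical strand-bin matched between the mutant replicates only on the first scale. Wild type replicates had median ratios of 0.991 and 1.11 on these scales.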

How the data were processed

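The authors deposited whole-number read counts per bin of 1000000 bases and strand for 104 bins, from reads aligned to the ce11 genome per the file headers, and a sheet with total and genome-mapped reads per library. These counts are not normalized. How reads were trimmed and aligned, and how those that match several places were counted, is not given in the sources used here. The piRNA table was not used, since its identifiers carry no position.

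Bins were annotated by strand with Ensembl release 115 (WBcel235). All 208 strand-bins passed the default filterByExpr filter of edgeR 4.0.16 (R 4.3.3), whose quasi-likelihood test compared genotypes with genome-mapped reads as library size, normalization factors of 1 and Benjamini-Hochberg adjustment over all strand-bins (threshold 0.05). A second fit used reads outside the largest strand-bin as library size, with that strand-bin still among the 208 tested. An SE is the absolute log2 fold change divided by the square root of F and is approximate. Sums, shares and ratios were compared by two-sided exact permutation tests over 6 arrangements. DESeq2 1.42.0, TMM and median-of-ratios factors, stricter filters, a replicate block and leaving out each library were alternatives. The edgeR fit per genome-mapped read was tested on simulated data, and the second fit was not. The simulated counts had the same spread for all strand-bins and both genotypes. They therefore cannot show how the test behaves with the wider spread of the mutant replicates. Python 3.11.15, pandas 2.3.3, NumPy 2.4.6, SciPy 1.17.1 and matplotlib 3.10.9 did the rest.

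Named strand-bins were the 4 with the highest mean RPM of each chromosome, up to 5 called ones per fit and direction (the 3 with the largest log2 fold change where none was called), the one with the most piRNA genes of each chromosome and the one with 5S genes, 18 in all. The chromosomes, lists and rules were chosen with earlier results of these data known.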

Additional observations from a re-analysis of the deposited data

How the results depend on the processing

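The scaling and the libraries set most calls. Per genome-mapped read, where edgeR called 0 lower and 0 higher, TMM factors gave 1 lower, median-of-ratios factors 1 lower and 2 higher, and DESeq2 17 lower and 10 higher; leaving out a library gave 0 to 29 lower and 0 to 13 higher. Per read outside the largest strand-bin, where 2 were lower and 1 higher, DESeq2 gave 4 lower, TMM factors 1 lower and 0 higher, median-of-ratios factors 1 lower and 2 higher, and a minimum of 50 reads 1 lower; leaving out a library gave 0 to 91 lower and 0 to 5 higher. With 1 library left in a genotype, that library was assumed to vary like the other genotype. For TMM factors, median-of-ratios factors and a minimum of 50 reads, no share of all 208 strand-bins was computed. Nor was one computed for libraries left out per outside read. Whether these counts differ from those in the rest of the genome was therefore not tested. Per outside read, the median log2 fold change was -0.60 over all 208 strand-bins and -0.64 over the 102.

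The mir-35 to mir-44 call was lost under TMM (log2 fold change -1.48, edgeR adjusted p = 0.258) and median-of-ratios factors (-1.42, 0.242). The mir-70 call was lost under TMM factors (2.34, 0.102), and the call at the right end of II with a minimum of 50 reads (0.0672). These losses kept their direction, and the cause was not tested.

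Replicate numbers shared between genotypes were treated as a number only: the deviations of same-numbered libraries correlated at -0.09 over the 102 strand-bins. With the replicate block, edgeR called 0 lower and 0 higher per genome-mapped read, and 1 lower and 0 higher per outside read, with adjusted p of 0.0699 at the right end of II and 0.216 for mir-70.

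The log2 difference of chromosome II (-0.0013) became 0.42 without its most-read strand-bin and ranged from -0.18 to 0.18 with a library left out. Per outside read, III became -0.10 and V -0.12. In the strand-bins with no miRNA, rRNA or piRNA gene, III was at -0.48 (2 strand-bins) and V at -0.36 (3). The plus-strand difference of II (-3.09 percentage points) became 10.6 without its most-read bin, and that of III (3.09) became -1.12 as a median over bins. The median log2 fold change of strand-bins with a miRNA gene was -0.60 per outside read and -0.12 to -0.062 with a library left out. Without a miRNA gene it was -0.68 per outside read. This class was chosen after seeing the data, because a planned median over strand-bins with no small RNA gene could not be computed: there were none.

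Changes of sign touched 5 strand-bins, none of them called. With a library left out, the log2 fold change per genome-mapped read ranged from -0.046 to 0.74 for mir-46, from -0.076 to 0.71 for mir-45 with mir-252 and mir-355, from -0.65 to 0.71 for mir-61 with mir-250 and from -0.28 to 0.21 for the strand-bin of II with 14 piRNA genes. Per outside read the range was -0.64 to 0.19 for mir-46 and -1.30 to 0.049 for the strand-bin with 14 piRNA genes. Under TMM and median-of-ratios factors, in place of outside reads, the values were 0.45 and 0.51 for mir-46, 0.45 and 0.51 for mir-45, 0.27 and 0.34 for mir-61, and 0.055 and 0.0965 for the strand-bin with 14 piRNA genes, the last also in place of genome-mapped reads. The strand-bin of III with 7 piRNA genes reached 0.0083 under median-of-ratios factors in place of either. Over the 18 named strand-bins, 281 of 360 recomputed values kept their direction and their side of the threshold, 49 newly passed it, 12 lost it and 18 changed sign. The 360 values are not all separate checks. TMM and median-of-ratios factors replace the library size, so their values were nearly the same under both scalings and were counted under each. Every strand-bin passed the default filter, so the values with no filter equalled the main ones. Counts and SEs cover counting and the spread of these libraries only, since PCR copies were not separated from molecules.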

Other observations

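The strand-bins of chromosome V with neither a miRNA nor a ribosomal RNA gene differed in level along the chromosome, which was split by bin number into a left, a middle and a right section. The 8 in the middle section had medians of 470 and 452 RPM in wild type, and of 452 and 447 RPM in the mutant. The 7 in the left section had 295 and 321 RPM in wild type, and 294 and 287 RPM in the mutant. The 9 in the right section, which include the SL1 strand, had 346 and 298 RPM in wild type, and 234 and 342 RPM in the mutant. The middle section thus had the highest median in each of the 4 libraries. On chromosome II the 6 such strand-bins of the middle section also had the highest medians, at 742 and 785 RPM in wild type, and at 641 and 711 RPM in the mutant. On chromosome III the middle section held 1 such strand-bin, at 707 and 710 RPM in wild type, and 704 and 714 RPM in the mutant. The 5 of the right section of III had medians of 711 and 695 RPM in wild type, and 621 and 576 RPM in the mutant, so the middle was not the highest in wild type replicate 1. These are descriptions of bins that share their libraries, and no test was made.

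Among strand-bins without a miRNA gene, the median log2 fold change per genome-mapped read was -0.10 over the 37 with a tRNA gene and -0.22 over the 11 without one, beside -0.09 over all strand-bins. Over these 48 strand-bins, which share their libraries, the number of tRNA genes had a Spearman rank correlation of 0.34 with the log2 fold change. It was similar for other genes, at 0.32 for protein-coding genes, 0.27 for those of the opposite strand and 0.30 for piRNA genes. For genes annotated as ncRNA it was 0.17. All are given as a description.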
